A study of Mus musculus with 12 samples.

Results

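Clustered CpGs are the differentially methylated CpG sites that have at least 1 other called site within 100 bp. They were taken from the authors' deposited table of sites called between groups, leaving out sites near gene ends, which were those up to 1000 bp outside or 100 bp inside an end of the span of a protein-coding or long noncoding RNA (lncRNA) gene. Of the 2798 sites in that table, 480 met this rule, 2110 were isolated sites away from gene ends and 208 lay at gene ends, 63 of them clustered as well. Chaining the 480 sites wherever neighbours lay 100 bp or less apart gave 180 runs of at least 2 sites, and 2 sites whose partner had been left out at a gene end, a loss of -25.01 points in the lncRNA gene Gm31295 on chromosome 4 and one of -28.9 points in Pcdh19 on the X chromosome. The members were thus chosen for having been called and for their spacing, so neither property is a result here.

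Methylation was measured in CD11c dendritic cells, which present antigen to T cells, taken from the spleen of female offspring (F1) of C57BL/6 mice. In 6 libraries the mothers (F0) had been given DEHP, the phthalate plasticiser di(2-ethylhexyl) phthalate, for 10 days at a daily dose of 37 µg/kg, and in the other 6 libraries corn oil. The parent mice were obtained at 6 to 8 weeks of age and the mothers were mated with untreated males, and all 12 libraries carry the label OVA for immunization. The labels leave out the age of the offspring, the number of mothers and whether a library is 1 animal, and their extraction note also names spleen tissue. The deposited calls thus cannot be set against variation between mothers. Reduced representation bisulfite sequencing (RRBS) reads CpG-rich restriction fragments after bisulfite has turned unmethylated cytosine into uracil. A difference below is the methylation difference between the groups as wholes, in percentage points. A positive value, which the deposited split calls hypermethylated, is read as higher methylation with maternal DEHP, a direction that the table does not state. Values of single libraries and read depths were not used here, so there is no spread between libraries and no test of the authors' calls. Cell type could not be checked against its markers, because methylation calls without values per library show no mixture of cells.

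DNA methylation at CpG dinucleotides is copied at each cell division and is usually shared by CpGs that lie close together, since the enzymes that add and remove it act along a stretch of DNA. CpG-rich promoters are mostly unmethylated in cells, whereas gene bodies and repeated sequence are mostly methylated. Methylation of 1 parental copy marks imprinted genes, and in female cells it marks the promoters of the silenced X chromosome. CpGs within 100 bp can be read on the same DNA molecules, so the sites of a run are not independent measurements of the mice.

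Sequence was at hand for the clustered sites that fell in a RefSeq promoter window (GRCm38.p6), which holds 250 bases before and 50 bases after an annotated gene start. There were 16 such sites in 5 windows, all at starts inside a longer gene span. They are shown because they let the called CpGs be seen among the CpGs of the same stretch that are not in the authors' deposited table. Bhmg1, Calml4, Gjb1 and Tceanc were picked by this position. All 16 sites fell on a CG, as did all 74 of the table's sites that lay in any promoter window. The windows are chr7:19118295-19118594 on the minus strand (Bhmg1), chr9:62857854-62858153 on the plus strand (Calml4), chr12:23634343-23634642 on the minus strand (Gm40862), chrX:101383482-101383781 on the plus strand (Gjb1) and chrX:166510429-166510728 on the minus strand (Tceanc). Capitals mark the called CpGs, and each window is printed 5′ to 3′ in the direction of transcription.
Bhmg1: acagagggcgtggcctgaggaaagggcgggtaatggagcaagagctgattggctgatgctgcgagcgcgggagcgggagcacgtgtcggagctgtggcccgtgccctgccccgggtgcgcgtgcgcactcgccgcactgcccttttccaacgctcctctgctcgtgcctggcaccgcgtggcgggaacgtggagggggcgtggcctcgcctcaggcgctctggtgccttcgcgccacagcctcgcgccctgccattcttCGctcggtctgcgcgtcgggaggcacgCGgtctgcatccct
Calml4: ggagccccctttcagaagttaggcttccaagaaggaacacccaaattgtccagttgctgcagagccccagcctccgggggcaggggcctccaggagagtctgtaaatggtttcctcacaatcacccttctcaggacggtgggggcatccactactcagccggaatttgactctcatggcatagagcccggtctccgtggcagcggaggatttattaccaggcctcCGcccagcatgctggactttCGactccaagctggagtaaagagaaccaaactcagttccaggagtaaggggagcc
Gm40862: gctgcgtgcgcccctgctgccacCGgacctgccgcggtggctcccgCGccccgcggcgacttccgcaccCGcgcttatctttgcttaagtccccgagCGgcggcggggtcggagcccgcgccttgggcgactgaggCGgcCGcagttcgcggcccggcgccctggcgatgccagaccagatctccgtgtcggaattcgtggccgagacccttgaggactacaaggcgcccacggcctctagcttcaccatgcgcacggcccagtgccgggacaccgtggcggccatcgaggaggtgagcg
Gjb1: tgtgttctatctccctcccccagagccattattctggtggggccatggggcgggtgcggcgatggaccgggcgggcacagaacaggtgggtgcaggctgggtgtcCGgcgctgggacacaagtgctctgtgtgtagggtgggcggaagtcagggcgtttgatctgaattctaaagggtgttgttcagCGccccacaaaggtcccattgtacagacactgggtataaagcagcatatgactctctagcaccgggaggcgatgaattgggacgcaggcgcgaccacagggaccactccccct
Tceanc: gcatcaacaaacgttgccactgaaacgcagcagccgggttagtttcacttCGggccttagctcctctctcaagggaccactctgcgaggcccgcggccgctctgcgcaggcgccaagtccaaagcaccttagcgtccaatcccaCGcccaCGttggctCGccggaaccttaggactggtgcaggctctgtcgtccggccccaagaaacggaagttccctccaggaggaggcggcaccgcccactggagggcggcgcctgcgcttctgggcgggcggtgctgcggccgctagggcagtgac

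The called sites were a small part of the CpGs in each window. Counting from 1 at the 5′ end of the printed window, the Bhmg1 window held called CpGs at positions 260 and 287, and 33 of its 35 CpGs were not in the table. These 2 sites were hypomethylated by -26.9 and -29.9 points in the authors' deposited table, and the third site of their run, at 19118279 just outside the window, by -28.2 points. In the window of Calml4, a calmodulin-like gene, the called CpGs at positions 226 and 246 were hypermethylated by 30.7 and 34.1 points, and 6 of 8 CpGs were not in the table. The window of Gjb1, the X-linked gene of the gap junction protein connexin 32, had called CpGs at positions 106 and 188 (26.2 and 31.6 points) among 15. Tceanc, an X-linked gene related to transcription elongation factors, had 4 called CpGs of 27, at positions 51, 145, 151 and 159, hypermethylated by 25.8, 36.7, 31.6 and 27.9 points in that order. Sites with the letters CCGG, the recognition sequence of MspI, the enzyme most used for RRBS, were searched for and read the same on both strands. All 5 windows held at least 1, as did 52.8% of the 32851 promoter windows. The labels do not name the enzyme used here.

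The predicted gene Gm40862 on chromosome 12 had the only run of 5 or more sites in which directions were mixed. Its window held 41 CpGs, a number that 3.46% of all promoter windows reach, and 6 of them were in the authors' deposited table. From 5′ to 3′ these 6 CpGs, at positions 24, 47, 70, 98, 137 and 141, differed by 35.0, 37.9, 27.5, -26.0, 31.2 and 31.4 points. A single hypomethylated CpG thus stood between hypermethylated ones. Of the 271 stretches of 30 bases in the window, 190 also occurred in the promoter window of another predicted gene, Gm40847, on the same chromosome, while the other 4 windows shared none with another gene's window. Whether reads of the 2 copies were told apart was not tested.

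**Figure D1:**
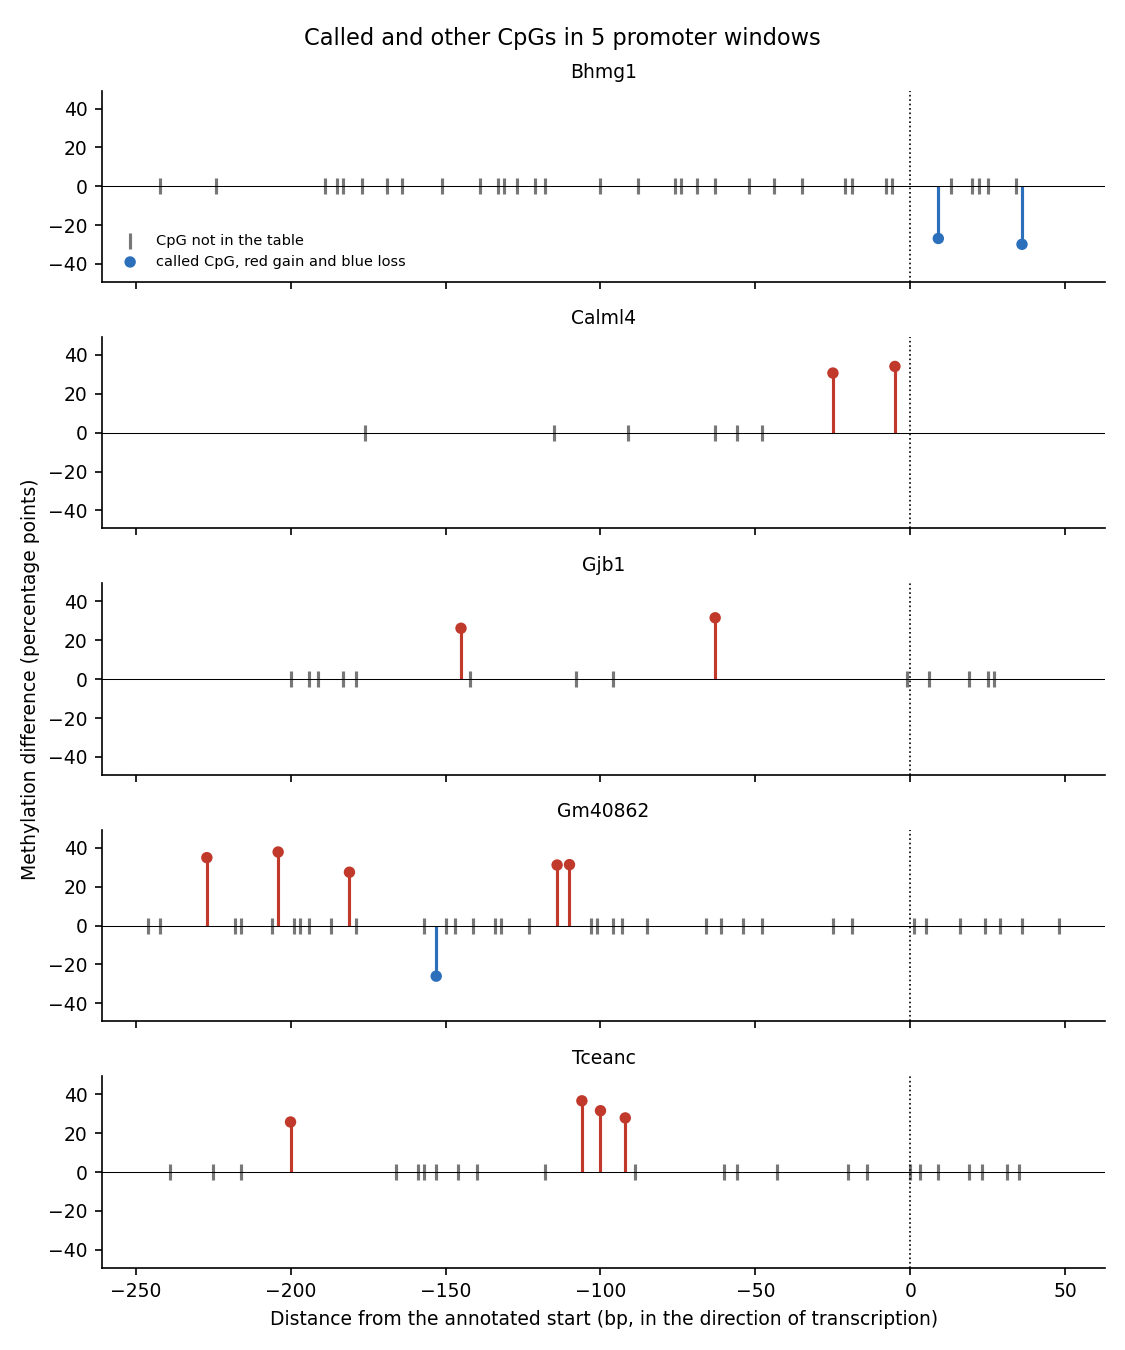
Methylation difference (vertical axis, percentage points) of the called CpGs in 5 promoter windows by distance from the annotated gene start (horizontal axis, bp); grey ticks mark CpGs that are not in the table. The called CpGs of Bhmg1 lie below 0, those of Calml4, Gjb1 and Tceanc above 0, and those of Gm40862 on both sides.

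Most runs were short. Of the 180 runs, 125 held 2 sites and 34 held 3, so that 352 of the 480 clustered sites lay in runs of 2 or 3. Runs of 4 sites numbered 7, runs of 5 numbered 4 and runs of 6 numbered 7, and there was 1 run each of 9, 12 and 15 sites. The distance from the first to the last site of a run had a median of 42.5 bp, from 2 bp to 204 bp. A CpG between called sites that differed by less than the table's minimum of 25 points, or that was not covered, would not appear. A run may therefore leave out sites that differed.

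**Figure D2:**
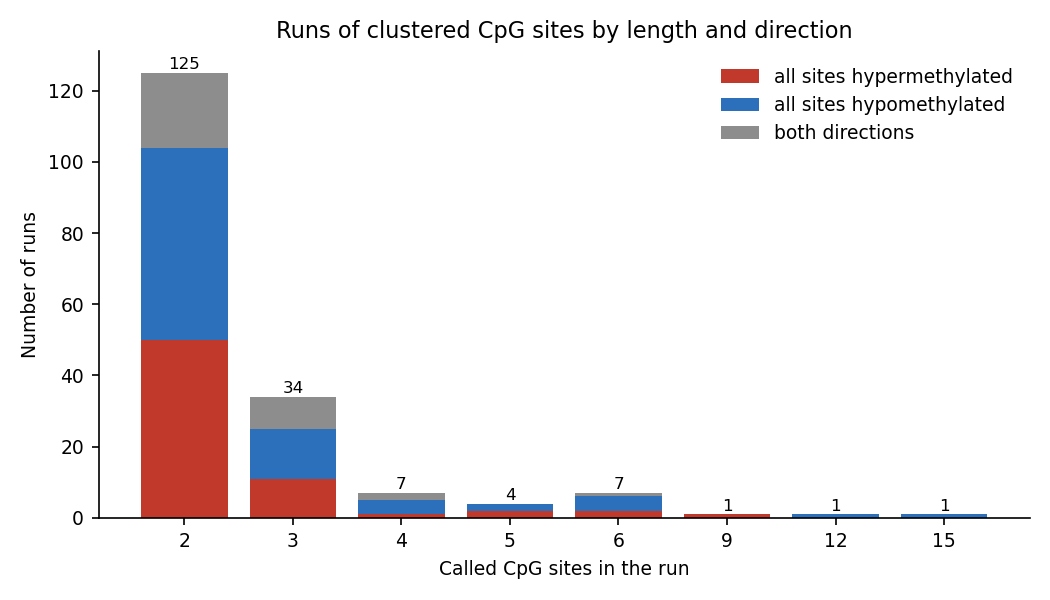
Number of runs (vertical axis) by the number of called CpG sites in the run (horizontal axis), coloured by direction. Runs of 2 sites make up 125 of the 180, and mixed runs occur at lengths of 2, 3, 4 and 6 sites.

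Sites of a run mostly went in 1 direction. All sites agreed in 147 of 180 runs (81.7%), 67 of them hypermethylated and 80 hypomethylated, and 33 runs held both directions. By length, 104 of 125 runs of 2 sites (83.2%), 25 of 34 runs of 3 (73.5%) and 5 of 7 runs of 4 (71.4%) had a single direction, as did 13 of the 14 runs of 5 or more. With sites chained up to 200 bp apart, 159 of 311 runs (51.1%) had a single direction. This wider distance added 140 adjacent pairs, of which 120 were opposite, and 108 of those lay among the 121 pairs 111 to 160 bp apart. Of the 147 runs with a single direction, 8 had another called site 101 to 200 bp from an end, which had the direction of the run in 7 and the opposite one at Npas4.

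Within runs of a single direction the sites had close values, as listed sites did in general. The difference between the highest and the lowest site of such a run had a median of 5.3 points, and it was at most 5 points in 72 runs and over 15 points in 12, with a maximum of 24.8. Between adjacent sites of the same direction the values differed by a median of 4.3 points at up to 10 bp, 3.8 points at 11 to 50 bp and 4.5 points at 51 to 100 bp (81, 123 and 58 pairs). Spearman's rho between the absolute differences of such neighbours was 0.24 over 262 pairs, which share sites and have values bounded below by the table's minimum. Of all clustered sites, 257 (53.5%) differed by less than 30 points, so the listed values lay within a narrow range. The absolute differences of all sites in the table had quartiles of 26.6 and 32.4 points. Whether sites of a run were closer in value than sites of different runs was not tested.

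Adjacent sites within a run had the same direction in 262 of 298 pairs (87.9%), and the share changed with their distance. Of 82 pairs at 1 to 10 bp, 81 had the same direction (98.8%), among them all 7 pairs that lay 2 bp apart. Some long runs gave several of these pairs each, so the pairs are not separate observations. Distance was not separated from run length. Same-direction pairs were 50 of 54 (92.6%) for distances of 11 to 20 bp, 40 of 51 (78.4%) for 21 to 30 bp and 18 of 26 (69.2%) for 31 to 40 bp. Opposite pairs made up 19 of the 77 with 21 to 40 bp between them (24.7%), 7 of the 72 with 41 to 90 bp (9.72%) and 5 of the 13 with 91 to 100 bp. The share of opposite pairs therefore did not change steadily with distance. These wider steps are unequal in width, with limits that fall where the shares in steps of 10 bp changed. Whether the steps differ beyond chance was not tested. At the limit of the rule, the authors' deposited table held 5 pairs 96 to 100 bp apart, 4 with the same direction, and 5 pairs away from gene ends 101 to 105 bp apart, 3 with the same direction. The widest pair kept was that of 26.5 and -27.8 points in the pseudogene Gm8557 on chromosome 12, 100 bp apart, and the narrowest left out, 101 bp apart, included that of -25.6 and -33.1 points at 151560127 and 151560228 on chromosome 4.

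**Figure D3:**
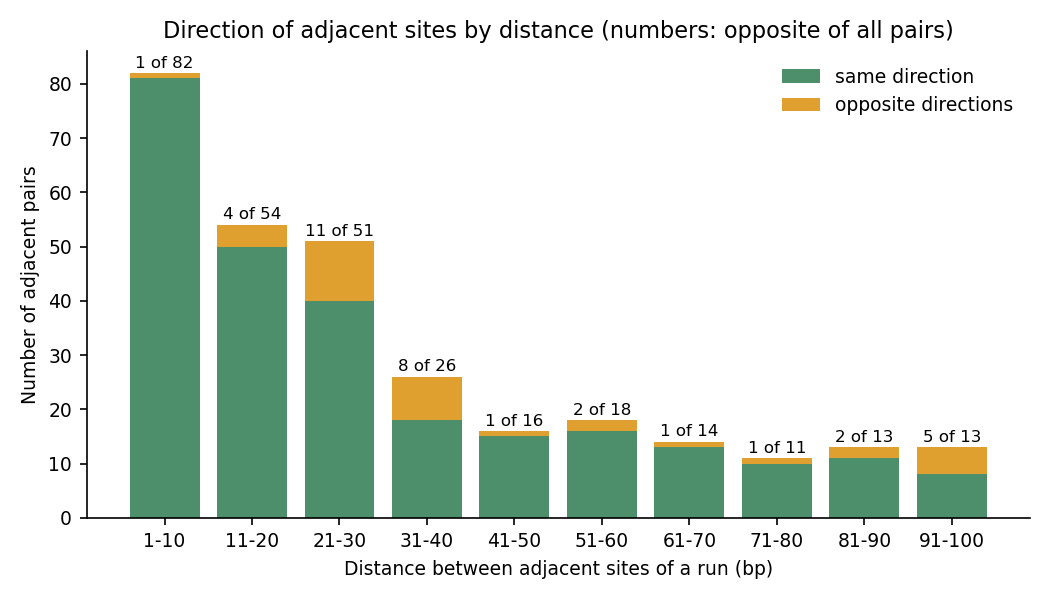
Number of adjacent site pairs within runs (vertical axis) by their distance in steps of 10 bp (horizontal axis), split into same and opposite directions; the numbers above the bars give opposite pairs of all pairs. Opposite pairs number 1 of 82 within 10 bp, 11 of 51 from 21 to 30 bp, then 8 of 26 up to 40 bp.

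Of the 480 clustered sites, 209 were hypermethylated (43.5%) and 271 hypomethylated (56.5%), beside 48.4% and 51.6% of all sites in the table. A few long runs held part of the surplus of losses. Runs of 5 or more sites held 36 hypermethylated and 62 hypomethylated sites. Of these losses, 15 lay in a single run on chromosome 19 and 12 in a single run in Sox3, so they are not separate observations. Without runs of 9 or more sites, 200 of 444 clustered sites (45.0%) were hypermethylated. In runs of 2 or 3 sites 165 of 352 (46.9%) were hypermethylated. The direction of the surplus was not kept at larger differences. When the table was limited to differences of 30 points or more and chained anew, 79 of the 147 sites then clustered (53.7%) were hypermethylated. The share among all listed sites of that size is not given here, so this turn is not read as a trait of clustered sites. Hypermethylated clustered sites had a median of 30.5 points and hypomethylated ones of -28.8.

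The absolute difference of the clustered sites had a median of 29.5 points (quartiles 26.8 and 34.0). The median was 28.5 points (26.5 and 31.9) for isolated sites and 29.1 points (26.7 and 33.2) for sites at gene ends. A difference of at least 40 points was reached by 40 clustered sites (8.33%), by 9.62% of sites at gene ends and by 5.43% of all sites in the table. A deposited q-value of 0 was given to 398 clustered sites (82.9%) to 71.3% of isolated ones and to 82.2% of sites at gene ends, and in 126 runs all sites had it. The largest q-value of a clustered site was 6.4e-06. Clustered and isolated sites were not tested against each other, since clustering was chosen from the same calls. The members nearest to the table's minimum were the chromosome 4 site without a partner (-25.01 points), the site at 145505107 in Amot on the X chromosome (-25.03 points) and the Sox3 site at 60892639 (-25.04 points).

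The longest run lay on chromosome 19 in no annotated gene. Its 15 sites between 3083519 and 3083723 were all hypomethylated in the authors' deposited table, by -25.5 to -33.4 points (mean -29.3), each with a q-value of 0. The sites formed 6 and 9 sites on either side of a gap of 57 bp. The nearest protein-coding gene, Ighmbp2, was 175353 bp away. The sequence of this run was not at hand, so whether it occurs in further copies was not tested. Only 1 other run lay on chromosome 19, in Npas4.

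The second longest run lay in Sox3, an X-linked gene for a transcription factor of neural and pituitary development. In the authors' deposited table its 12 sites between 60892512 and 60892649 differed by -44.5, -39.0, -33.3, -44.5, -35.5, -45.8, -45.4, -37.1, -39.2, -43.0, -25.04 and -29.2 points, a mean of -38.5. All were hypomethylated, and the last pair had the smallest values. The run ended 781 bp inside the nearer end of the span, and 1 more called site of the same stretch was left out by the rule for gene ends. Sox1, a related factor gene on chromosome 8, had 2 hypomethylated sites (-35.2 and -29.5 points) 1604 bp outside its span, within the lncRNA gene Sox1ot. These were 2 of 77 patterning transcription factor genes with a clustered site in their span or within 5 kb, and 14 of the 77 had any listed site. Over all 21896 protein-coding genes, 0.575% had a clustered site and 6.51% any listed site by the same rule. Gene length was not matched, and each list was chosen with results of these data known, so nothing is read from its count.

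Other long runs of hypomethylated sites lay in Gnas, Shroom2, Bsn and Rybp-ps. Gnas encodes the stimulatory G protein alpha subunit and is imprinted in a transcript-specific way. In the authors' deposited table its 5 sites between 174285639 and 174285711 on chromosome 2 differed by -32.5, -34.6, -28.7, -33.1 and -36.9 points, and they also lie in the antisense gene Gnasas1. Shroom2, an X-linked gene for an actin-binding protein, had 6 sites between 152769767 and 152769924, at -32.0, -28.7, -25.9, -30.0, -26.8 and -35.2 points. Bsn, the gene of the presynaptic scaffold protein Bassoon on chromosome 9, had 6 sites between 108105487 and 108105575, at -33.1, -25.5, -25.5, -26.5, -27.9 and -36.0 points. The transcribed pseudogene Rybp-ps on chromosome 13 had 6 sites between 66007582 and 66007698, with losses from -35.4 at its first site to -25.1 at its last. Whether reads of this pseudogene were told apart from those of similar sequence was not tested. The values within each of these runs spanned 8.2, 9.4, 10.4 and 10.4 points, in the order Gnas, Shroom2, Bsn and Rybp-ps. Of 24 imprinted genes found by symbol in the gene table, Gnas was the one with a clustered site, and 4 had any listed site. Gnasas1, which holds the same run, was not counted, since the list did not hold that symbol. The shares over all protein-coding genes were 0.575% and 6.51%, but the list also includes noncoding genes.

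Long runs of hypermethylated sites lay in Meioc, Fbxo31 and Lingo3 and beyond annotated genes. Meioc, a gene needed for meiosis, had 6 sites between 102666346 and 102666398 on chromosome 11, hypermethylated by 37.7, 26.2, 28.0, 36.3, 32.9 and 35.5 points in the authors' deposited table. Fbxo31, which encodes a substrate-binding subunit of a ubiquitin ligase, had 6 sites between 121570328 and 121570442 on chromosome 8, at 36.9, 26.6, 30.8, 25.7, 46.2 and 25.3 points. Its values were the least even of these, with neighbours 11 bp apart at 46.2 and 25.3 points. Lingo3, a gene of the leucine-rich repeat membrane proteins, had 5 sites between 80834769 and 80834843 on chromosome 10, at 33.4, 42.8, 34.2, 35.4 and 34.3 points. On chromosome 15, 5 sites between 77857682 and 77857770 were hypermethylated by 33.8, 31.6, 30.1, 31.8 and 26.7 points, 15507 bp from Myh9, a nonmuscle myosin gene.

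**Figure D4:**
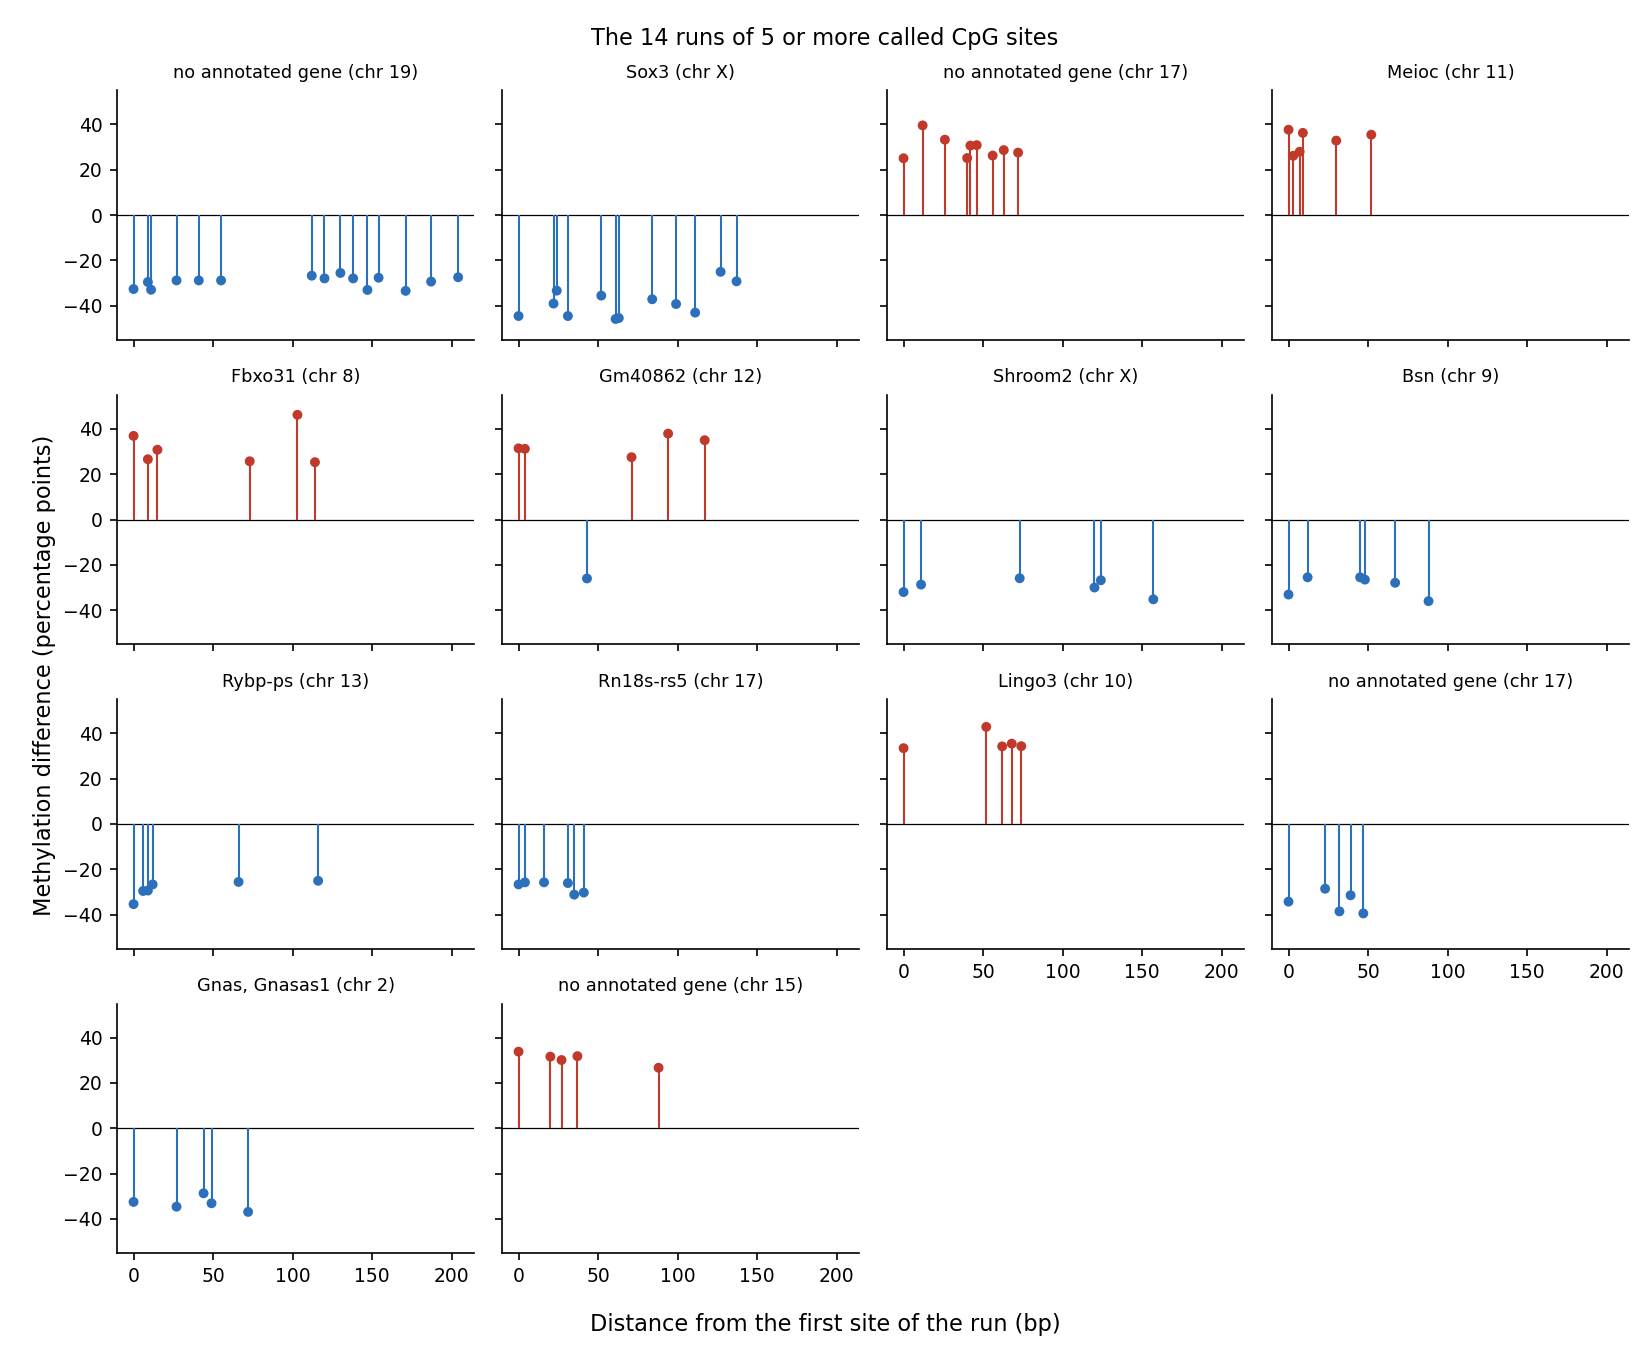
Methylation difference (vertical axis, percentage points) of each site in the 14 runs of 5 or more called CpGs, by distance from the first site (horizontal axis, bp); red marks gains and blue losses. In 13 runs all points lie on 1 side of 0, and the Gm40862 run has 1 of 6 points below it.

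A ribosomal DNA copy on chromosome 17 held 4 runs, each of a single direction but not all of the same one. In order of position these were 3 sites from 39844667 (26.0 to 31.2 points), 5 sites from 39845836 (-28.6 to -39.5 points), 9 sites from 39846122 (25.1 to 39.6 points) and 6 sites from 39847054 (-25.8 to -31.2 points) in the authors' deposited table. The direction thus turned between each run and the next. The last run lies in the 18S-related pseudogene Rn18s-rs5. Ribosomal DNA is present in many copies in the genome, and reads of the copies cannot be told apart here. On chromosome 12 between 19606806 and 23634618, there were 8 runs with 23 sites, 4 hypermethylated, 1 hypomethylated and 3 mixed. Predicted genes or pseudogenes held 5 of these runs, and 3 lay in no annotated span. Gm9257 there was the one coding gene with 2 runs, 3 sites at 31.1, 26.2 and 35.5 points and 2 at 49.1 and 29.0 points. Without both regions, 138 of 168 runs (82.1%) had a single direction.

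The X chromosome held 22 runs with 67 sites, 13 runs hypomethylated, 9 hypermethylated and 0 mixed. On the autosomes 33 of 158 runs (20.9%) were mixed. Of the clustered sites 14.2% lay on the X chromosome, against 6.68% of isolated sites away from gene ends, 11.5% of sites at gene ends and 8.33% of all sites. None of these differences was tested. Each cell of these female mice carries an active and a silenced X, and the values do not tell them apart. Of the 22 runs, 18 lay in protein-coding spans, 9 of them within 1 kb of an end of the span, against 17 of 82 on the autosomes.

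Beyond Sox3, Shroom2, Gjb1 and Tceanc, the X-linked runs in genes had 2 or 3 sites each. Il13ra1, which encodes a receptor chain for interleukin-13, had 3 hypomethylated sites (-26.6, -35.8 and -26.7 points) from 36112405 to 36112447, 297 bp inside an end of its span, in the authors' deposited table. It was the one of 31 dendritic cell and immune genes with a clustered site, and 6 had any listed site, beside 0.575% and 6.51% of all protein-coding genes. Magee1 (-31.6, -29.3 and -42.1 points), Cited1, a transcriptional coactivator gene (-28.3, -37.2 and -25.8 points), and Huwe1, a ubiquitin ligase gene (-25.1, -25.3 and -25.3 points), were hypomethylated as well. Gains lay in Frmpd3 (27.9, 34.6 and 37.0 points), in Nhs, the gene of Nance-Horan syndrome (32.8, 27.8 and 28.1 points), and in Aff2, a gene of the AF4/FMR2 family (46.1 and 38.0 points). Amot, the angiomotin gene, had a pair at -25.03 and -26.8 points. Values within a run were further apart at Magee1 than at Huwe1 and Amot, where they lay near the table's minimum of 25 points.

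**Figure D5:**
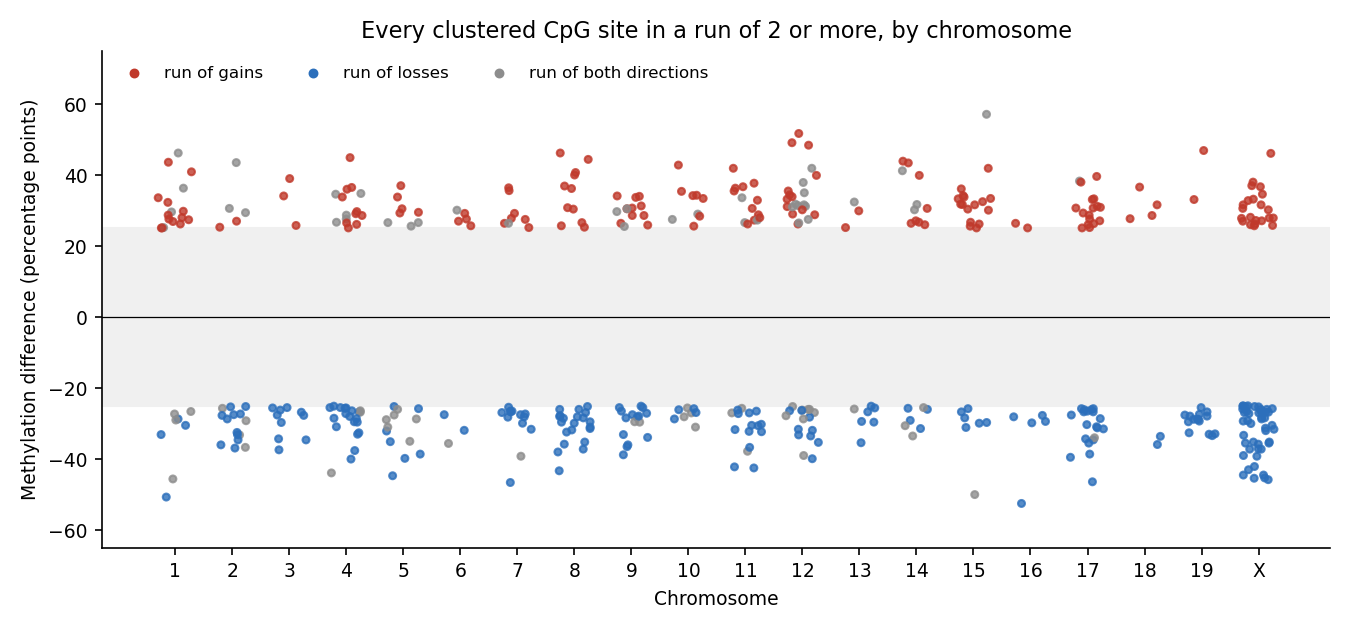
Methylation difference (vertical axis, percentage points) of every site in a run of 2 or more by chromosome (horizontal axis); points are coloured by the direction of their run, spread sideways at random, and the grey band is the range below the table's minimum of 25 points. The X chromosome has points of 13 runs of losses and 9 runs of gains and no point of a mixed run.

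Among runs of 3 or 4 sites on autosomes, the largest gain was in Zfhx3, a zinc finger and homeobox factor gene on chromosome 8. Its 3 sites between 108595175 and 108595274 were hypermethylated by 40.7, 44.4 and 40 points in the authors' deposited table, 315864 bp inside the span. Ankrd45, an ankyrin repeat gene, had 3 gains (43.6, 27.6 and 27.4 points) within 20 bp, the first far above the others. Ccdc158, a coiled-coil gene, had 29.3, 33.8 and 30.5 points. A run on chromosome 3 without a gene had 25.8, 39.0 and 34.1 points, and the lncRNA gene Gm40823 had 36.7, 27.3 and 28.8 points.

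Among the large losses in runs of 3 or 4 sites, beside that at Magee1, some lay outside genes. A run on chromosome 5, 101190 bp from Smim20, had -44.7, -38.6 and -32.1 points in the authors' deposited table. A run on chromosome 11, 18991 bp from Nxph3, had 4 sites within 52 bp at -27.0, -31.7, -42.2 and -42.5 points, so that the loss was larger at each site than at the one before. Asb2, which encodes a substrate-binding subunit of a ubiquitin ligase of blood and muscle cells, had -33.5, -33.2 and -31.6 points within 18 bp, a stretch that also lies in the lncRNA gene Gm15523. Ndrg4 had -32.4, -28.1 and -35.8 points. Apart from the runs of 3 or 4 sites taken by size and that of Il13ra1, 22 such runs were left, some of them described above. They were 6 hypermethylated (means 27.4 to 30.9 points), 11 hypomethylated (means -25.2 to -32.0 points) and 5 mixed, with 15 of the 22 in coding spans.

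Of the 33 mixed runs, 21 held 2 sites, which allow only 1 change of direction, and 9 held 3 sites. Most mixed orders of 3 signs also have 1 change, so run length largely sets the number of changes. Of the 12 mixed runs of at least 3 sites, 9 changed direction once and 3 more than once. The widest was on chromosome 2, 16358 bp from Pbx3, where sites at 34154953, 34155034 and 34155099 had 43.5, -29.2 and -36.7 points in the authors' deposited table. Mroh2a on chromosome 1 had 29.6, -29.0 and -45.6 points in the same order of signs, and a run near Gm41918 had 46.2, 36.3 and -26.6 points. Cracd, a regulator gene of actin capping, had 3 losses (-35.0, -28.7 and -27.6 points) and then a gain (26.6 points) within 75 bp. A run 16641 bp from Elavl4 had 3 gains (34.6, 28.7 and 34.8 points) and then a loss (-26.8 points), and a run 32231 bp from Atp2c1 had -29.6, 25.5 and 30.5 points. A change of direction in the middle, as in Gm40862, also occurred at 21899305 on chromosome 12 (-25.2, 31.6 and -26.0 points).

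Of the 125 runs of 2 sites, 50 were hypermethylated, 54 hypomethylated and 21 mixed. Leaving out predicted genes, the largest single-direction gains inside coding spans were in Ahnak2 (39.9 and 51.7 points), Aff2, Xkr6 (39.9 and 43.9 points), Npas4, an activity-regulated factor gene of neurons (46.9 and 33.1 points), Nav1 (33.6 and 40.9 points) and Neurl1b (38.0 and 29.3 points) in the authors' deposited table. The largest losses by the same limits were in Col6a5, a collagen VI chain gene (-38.8 and -36.5 points), the metalloprotease gene Mmp23 (-40.0 and -29.5 points) and Rbfox3, a neuronal splicing factor gene (-30.2 and -36.7 points). They were followed by Fosl2, an AP-1 factor gene (-39.8 and -25.2 points), the kinase gene Aatk (-32.2 and -32.3 points, 3 bp apart) and the X-linked claudin gene Cldn34c1 (-35.5 and -28.4 points). Values of a pair were thus nearly equal at Aatk and differed by 14.7 points at Fosl2. Of the 105 runs of 2 sites not named by the rule, 44 gained (means 25.7 to 40.8 points), 47 lost (means -25.9 to -41.9 points) and 14 were mixed.

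The widest mixed pair lay in Nckap5l on chromosome 15. Its sites at 99427303 and 99427309, 6 bp apart, had -50.0 and 57.1 points in the authors' deposited table, both with a q-value of 0. The second was the largest gain of any clustered site, and this was the only opposite pair within 10 bp. Irf2bpl had -39.0 and 41.9 points 17 bp apart, the overlapping genes Acsf2 and Chad -37.8 and 33.6 points 40 bp apart, and Itm2b -25.5 and 41.2 points 94 bp apart. The pseudogene Vmn2r-ps133 had 38.3 and -34.0 points, and Zfp993, whose span also holds 2 pseudogenes there, had -43.9 and 26.7 points. Bdnf, the gene of brain-derived neurotrophic factor, had 30.6 and -33.2 points at 109677375 and 109677413 on chromosome 2. It was the one of 13 neurotrophin genes with a clustered site, and 6 had any listed site, beside 0.575% and 6.51% of all protein-coding genes. The study's title names a neurotrophin gene, so this list does not stand apart from the study's own choice.

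By position, 100 of the 180 runs (55.6%) lay in protein-coding spans, 11 in spans of noncoding RNA alone, 7 in pseudogene or other spans alone and 62 (34.4%) in no annotated span. Of single sites, 55.6% of the clustered and 50.9% of the isolated ones lay in coding spans. The gene table gives spans without exons, so exons and introns could not be told apart. The runs in coding spans touched 103 coding genes and comprised 36 hypermethylated, 47 hypomethylated and 17 mixed runs. Those outside all spans comprised 24, 26 and 12. Inside coding spans the nearer end lay a median of 3517 bp away, with 26 runs within 1 kb of an end and 30 runs over 10 kb from it. Runs outside coding spans lay a median of 31603 bp from the nearest coding gene.

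The remaining gene lists held no clustered site in a span or within 5 kb. These were 19 nuclear receptor genes, of which 4 had any listed site, and 17 chromatin regulator genes, of which 5 did. Among markers of other cells a splenic preparation could hold, 0 of 8 B cell, 0 of 8 T and NK cell, 0 of 7 macrophage, monocyte and neutrophil, 0 of 5 plasmacytoid and 0 of 4 erythroid markers had a clustered site, and 3, 2, 1, 3 and 1 of them had any listed site. With 0.575% of all protein-coding genes having a clustered site and 6.51% any listed site, lists of this size say little about either. Which CpGs of these genes were covered is unknown, so a gene without a clustered site is not shown to be unchanged.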

How the data were processed

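RRBS libraries of 6 maternal DEHP and 6 maternal corn oil samples were compared by the authors. Per the file headers, the deposited table gives each called site a position, strand, p-value, q-value and methylation difference in percentage points. Its hypermethylated and hypomethylated parts are given again in separate tables, which add up to it exactly. The build GRCm38 (mm10) and the tool methylKit are named in the submitters' processing notes. Its version, the aligner, the coverage minimum, the test and the q-value method are not stated there, so the depth of each call is unknown.

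Python 3.11.15 with pandas 2.3.3 was used to chain sites, assign runs to spans of the RefSeq gene table (GRCm38.p6, 49993 genes) and read promoter windows. The chaining was tested on simulated positions. Host genes were assigned by overlap of the run with a span, and lists of genes by overlap within 5 kb. No test was run, because no value per library was used and the sites were chosen from the same comparison. The clustered sites and the gene lists were chosen with earlier results of these data known. Runs were named by rule. The rule takes all runs of at least 5 sites, the 6 largest gains, losses and mixed runs of 3 or 4 sites and of 2 sites (gains and losses of 2 within coding genes other than predicted ones), and runs at listed genes. Runs of the ribosomal DNA copy and of chromosome 12, and the X-linked, promoter-window runs outside it, were added once their values were known. A few runs are not reported here.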

Additional observations from a re-analysis of the deposited data

How the results depend on the processing

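The 9 settings were tried on 8 summary values (sites, runs, shares by direction, gene context and X chromosome, and the median size), except the X chromosome share on autosomes, giving 71 values, of which 64 stayed within the spread of the reported value (the 95% exact binomial interval for shares, 1.5 times for counts, 1 SD over sites for the median). With chaining up to 200 bp there were 753 clustered sites in 311 runs, 51.1% of the runs had a single direction and 64.4% of adjacent pairs agreed. With a difference of at least 30 points there were 147 clustered sites in 59 runs, and 53.7% of the sites were hypermethylated. The median rose there from 29.5 to 34.3 points, which still counted as within 1 SD (5.73 points), a wide limit for a median. That rise and the changed numbers of sites and runs follow by construction, and the cause of the other changes was not tested. Chaining at 50 bp, keeping gene ends, leaving out coding ends alone, autosomes, leaving out the repeated regions and leaving out runs of 9 or more sites moved none of these values so far. The last was chosen after seeing the data, and a q-value under 0.001 removed no site, so none of its values could move. No paired analysis was possible because the table holds no values of single libraries, which also prevented leaving out a library. Intervals treat neighbouring sites as independent, which they are not. Sample titles are numbered in more than 1 way within each group, and a batch effect along these titles was not tested. The unknown depth limits all values.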

Other observations

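Some runs not named by the rule lay in genes of cell signalling and cell movement, picked after their values were seen and not tested as a group. Dock1 and Elmo1 encode partners that together activate the small GTPase Rac. In the authors' deposited table Dock1 had 3 hypomethylated sites within 19 bp (-27.3, -26.5 and -26.5 points), and Elmo1 had a mixed pair (32.4 and -25.9 points). Def6, which acts on Rac in lymphocytes, had a pair of losses (-30.9 and -26.5 points). Nfatc4, a calcium-regulated factor gene, had a pair of losses (-29.1 and -31.4 points).

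Other runs lay in genes of membrane transport and receptors. Oprd1, the delta opioid receptor gene, had 4 losses within 50 bp (-25.5, -26.4, -25.5 and -25.1 points), all close to the table's minimum. Slc7a2, a transporter gene for cationic amino acids, had losses of -27.8, -26.0 and -37.2 points. The acid-sensing channel gene Asic1 had gains of 33.3 and 25.1 points, and the cyclic nucleotide-gated channel gene Cnga3 had gains of 25.1 and 26.9 points.

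The largest loss of a clustered site was -52.5 points, at 38882554 on chromosome 16, 30 bp from a site of -27.7 points and in no annotated span. A pair on chromosome 1 at 7307207 and 7307257 had -33.1 and -50.7 points, also in no annotated span.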
